A study of Homo sapiens with 11 samples.

Results

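The metallothionein genes were followed in cardiomyocytes kept in long-term culture. Members were taken by gene symbol from the deposited count table: of 6 metallothionein genes sought (MT1E, MT1F, MT1G, MT1X, MT2A and MT3), 4 had a row among its 19990 genes, namely MT1E, MT1X, MT2A and MT3. MT1F and MT1G had no row and are not analysed here. The cells came from the established human line WTC11, made of induced pluripotent stem cells and used here at passage 63, by activating Wnt signalling with the GSK3 inhibitor CHIR99021 and then blocking Wnt secretion with IWP2. Wells of a single differentiation were kept in RPMI1640 with B27 supplement including insulin and collected at Day 30 (4 wells), Day 60 (3 wells) and Day 113 (4 wells). No arm carried another treatment or genotype, so day of culture was the comparison. The wells share a cell line and a differentiation, so the p-values measure the spread between wells, and day cannot be told apart from the collection. Poly(A) RNA was sequenced, and libraries held 24071375 to 34546715 counts, so that 1 count was worth 0.0285 to 0.0401 CPM (counts divided by the TMM-scaled library size, on the usual CPM scale).

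Metallothioneins are small proteins in which cysteines bind zinc, copper and cadmium in clusters. They buffer free zinc, and their genes are switched on by the zinc-sensing transcription factor MTF1, which binds metal response elements in their promoters; glucocorticoids and oxidative stress induce several of them as well. MT2A and the MT1 genes are expressed in many tissues, the heart included, whereas MT3 is best known as the growth inhibitory factor of brain.

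The coding sequences of MT2A, MT1E and MT1X are shown because the high similarity of the family bears on how reads are assigned. They were read from the principal transcripts of GENCODE release 29 (GRCh38), and capitals mark the cysteine codons TGC and TGT in the reading frame.
MT2A: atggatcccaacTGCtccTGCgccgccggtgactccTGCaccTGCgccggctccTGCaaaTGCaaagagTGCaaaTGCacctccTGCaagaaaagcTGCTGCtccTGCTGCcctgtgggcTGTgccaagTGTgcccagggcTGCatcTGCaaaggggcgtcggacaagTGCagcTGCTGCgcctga
MT1E: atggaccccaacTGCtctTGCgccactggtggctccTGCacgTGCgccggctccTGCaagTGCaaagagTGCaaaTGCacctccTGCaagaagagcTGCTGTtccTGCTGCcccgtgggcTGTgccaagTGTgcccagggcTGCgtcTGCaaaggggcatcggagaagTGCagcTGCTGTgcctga
MT1X: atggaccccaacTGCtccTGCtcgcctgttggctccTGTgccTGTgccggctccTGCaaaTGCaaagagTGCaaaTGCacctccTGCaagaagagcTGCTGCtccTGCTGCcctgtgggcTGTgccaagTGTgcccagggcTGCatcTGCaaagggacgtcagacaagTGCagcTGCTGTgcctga
Each held 20 cysteine codons among 61 codons (32.8%). MT2A and MT1E were identical at 172 of 186 aligned bases (92.5%), MT2A and MT1X at 92.5%, and MT1E and MT1X at 90.9%. Whole transcripts were compared by exact windows, a measure that any mismatch breaks and that is unlike the aligned identity. Of all 150-base windows of the principal transcripts, the read length of the study, 0% were found in a transcript of another gene for MT2A and MT1E. For MT1X it was 5.65%, shared with AC026461.1, a processed transcript on the same strand whose exons overlap 321 bases of those of MT1X. At 31 bases the shares were 48.1% for MT1X, 15.3% for MT1E and 12.2% for MT2A. How the authors treated reads that fit several genes is not given in the sources used here, so levels of single MT1 genes are uncertain, those of MT1X most by this measure.

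The genes lie in a row on the long arm of chromosome 16, all on the plus strand. In GENCODE release 29 (GRCh38) MT3 spans 56589074 to 56591088, MT2A 56608199 to 56609497, MT1E 56625475 to 56627112 and MT1X 56682424 to 56684196. RefSeq promoter sequences (GRCh38.p14) were given for MT2A and MT1X, that is 2 of the 6 members. The RefSeq starts used for them lie downstream of the GENCODE ones. The MT2A window printed below therefore falls inside its GENCODE span, and the MT1X window runs past its GENCODE start. They are printed because MT2A was the member that changed most, and MT1X allows a comparison within the family. The 250 bases before the start are shown, with capitals marking each match, on either strand, to the core of the metal response element written as TGCACNC or TGCGCNC.
MT2A, chr16:56608334-56608583, plus strand: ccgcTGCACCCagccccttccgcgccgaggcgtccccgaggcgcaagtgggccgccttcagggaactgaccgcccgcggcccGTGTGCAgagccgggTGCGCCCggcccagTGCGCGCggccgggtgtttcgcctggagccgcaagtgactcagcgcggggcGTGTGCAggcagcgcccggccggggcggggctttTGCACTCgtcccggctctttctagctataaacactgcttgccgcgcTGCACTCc
MT1X, chr16:56682220-56682469, plus strand: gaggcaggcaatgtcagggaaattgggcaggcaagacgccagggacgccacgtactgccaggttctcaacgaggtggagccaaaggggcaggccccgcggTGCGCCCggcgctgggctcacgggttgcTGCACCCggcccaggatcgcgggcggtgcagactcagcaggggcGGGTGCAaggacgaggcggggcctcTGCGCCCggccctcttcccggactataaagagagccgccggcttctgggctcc
The MT2A window held 7 matches, 5 on the plus and 2 on the minus strand, and the MT1X window held 4. Of 35116 RefSeq promoter windows of the same length, 24.8% held at least 1 match, 0.37% at least 4 and 0.0313% at least 7. A match describes these letters and does not show that a factor was bound in these cells.

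MT2A mRNA rose from Day 30 to Day 113, and it was the only one of the 4 genes to pass the test in that comparison. Day 30 wells held 14, 28, 60 and 20 MT2A counts, or 0.535, 0.934, 1.98 and 0.687 CPM. Day 60 wells held 119, 96 and 72 counts (3.80, 3.54 and 2.27 CPM), and Day 113 wells held 158, 200, 169 and 122 counts (4.56, 7.50, 4.82 and 4.89 CPM). Every Day 60 well lay above every Day 30 well (as for 10.7% of all genes), and every Day 113 well above every Day 60 well (16.2% of all genes), so no well of one day overlapped those of another. In order of day the means were 1.03 ± 0.649 CPM (SD, n = 4), 3.20 ± 0.817 CPM (SD, n = 3) and 5.44 ± 1.38 CPM (SD, n = 4).

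Tested with edgeR's quasi-likelihood test, with Benjamini-Hochberg adjustment over 19990 genes and a threshold of 0.05, MT2A was 5.23-fold higher at Day 113 than at Day 30. This is a log2 change of 2.39 ± 0.39 (SE, 95% interval 1.56 to 3.21, adjusted p = 0.000201). By Day 60 it was already 3.08-fold higher than at Day 30 (log2 change 1.62 ± 0.40, SE, 95% interval 0.76 to 2.48, adjusted p = 0.017). Leaving out Day 60 replicate 1 ended that earlier call with a similar log2 change (1.51, adjusted p = 0.0632), as did leaving out Day 60 replicate 2 (1.55, adjusted p = 0.0517). From Day 60 to Day 113 the fitted difference was 0.76 ± 0.40 (SE, 95% interval -0.08 to 1.61, adjusted p = 0.183), so a further rise was not shown by the test although the wells did not overlap. The change after Day 60 did not differ from the change before it beyond error. The difference between the changes was -0.86 ± 0.69 (SE, 95% interval -2.32 to 0.61, adjusted p = 0.499). The spans before and after Day 60 are unequal in length, so rates were not compared.

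**Figure D1:**
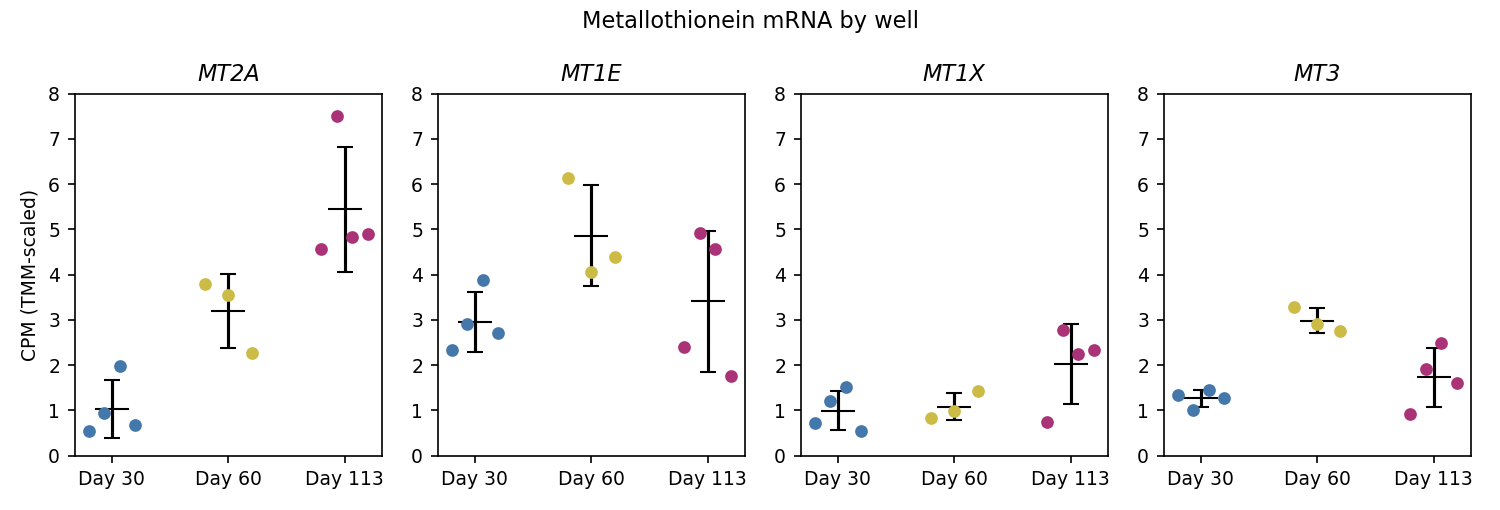
CPM of MT2A, MT1E, MT1X and MT3 in each well at Day 30, Day 60 and Day 113 (points), with the mean and SD (horizontal bar and whiskers). MT2A wells rank by day without overlap, from 0.535 to 7.50 CPM, while MT3 wells at Day 60 (2.74 to 3.29 CPM) lie above those of both other days.

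MT3 had its highest level at Day 60. Its Day 30 wells held 35, 30, 44 and 37 counts (1.34, 1.00, 1.45 and 1.27 CPM), its Day 60 wells 103, 79 and 87 counts (3.29, 2.91 and 2.74 CPM) and its Day 113 wells 32, 51, 87 and 40 counts (0.924, 1.91, 2.48 and 1.60 CPM). All 3 Day 60 wells were above all wells of both other days, a pattern shared by 2.66% of all genes, while the Day 30 and Day 113 wells overlapped. In order of day the MT3 means were 1.26 ± 0.190, 2.98 ± 0.278 and 1.73 ± 0.649 CPM (SD; n = 4, 3 and 4).

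For MT3 the test over the 3 days together passed narrowly in edgeR (adjusted p = 0.0465), but no single pair of days did. The log2 difference was 1.24 ± 0.39 (SE, 95% interval 0.42 to 2.05, adjusted p = 0.0529) for Day 60 against Day 30, and -0.78 ± 0.38 (SE, adjusted p = 0.156) for Day 113 against Day 60. Day 113 against Day 30 gave 0.45 ± 0.36 (SE, 95% interval -0.32 to 1.22, adjusted p = 0.374). The difference between the 2 intervals was -2.02 ± 0.66 (SE, 95% interval -3.41 to -0.63, adjusted p = 0.0658). These values sit at the threshold: DESeq2 called MT3 for Day 60 against Day 30 (adjusted p = 0.0192) and for the difference between intervals (adjusted p = 0.0319), while the test over the 3 days was lost with a replicate block (adjusted p = 0.0916) and on leaving out any one of 8 wells, namely each Day 30 well (adjusted p of 0.0658 to 0.0875), each Day 60 well (0.068 to 0.125) or Day 113 replicate 4 (0.0619).

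MT1E, a widely expressed MT1 gene, was not called in any comparison. Its Day 30 wells held 61, 87, 118 and 79 counts (2.33, 2.90, 3.88 and 2.71 CPM), its Day 60 wells 192, 110 and 139 counts (6.13, 4.05 and 4.39 CPM), and its Day 113 wells 83, 131, 160 and 44 counts (2.40, 4.91, 4.56 and 1.77 CPM). The 3 Day 60 wells lay above all Day 30 wells, and the Day 113 wells fell into a pair near 5 CPM and a pair near 2 CPM that together overlapped both earlier days. The log2 difference was 0.71 ± 0.35 (SE, 95% interval -0.04 to 1.47, adjusted p = 0.245) for Day 60 against Day 30. For Day 113 against Day 30 it was 0.21 ± 0.33 (SE, 95% interval -0.50 to 0.91, adjusted p = 0.68).

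MT1X held the fewest counts of the 4 genes and was not called either. Its Day 30 wells held 19, 36, 46 and 16 counts (0.726, 1.20, 1.51 and 0.550 CPM), its Day 60 wells 26, 27 and 45 counts (0.830, 0.995 and 1.42 CPM) and its Day 113 wells 26, 74, 79 and 58 counts (0.751, 2.77, 2.25 and 2.33 CPM). Of the Day 113 wells, 3 lay above every earlier well, and replicate 1 lay among them. Day 113 against Day 30 gave a log2 difference of 1.01 ± 0.49 (SE, 95% interval -0.02 to 2.05, adjusted p = 0.123), and without Day 113 replicate 1 it was 1.29 and passed (adjusted p = 0.0414). Day 60 against Day 30 gave 0.11 ± 0.53 (SE, adjusted p = 0.939).

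**Figure D2:**
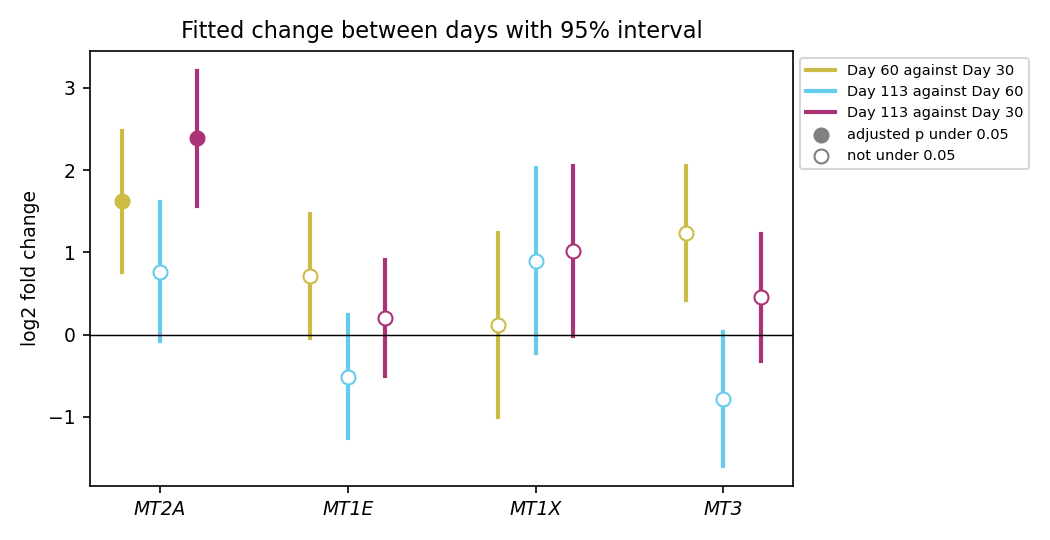
Fitted log2 fold change of each gene for the 3 pairs of days (points) with its 95% interval (lines); filled points have an adjusted p under 0.05. The MT2A changes of 1.62 and 2.39 against Day 30 are the filled points, and the other intervals reach 0 except that of MT3 for Day 60 against Day 30 (0.42 to 2.05).

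Read against all genes, 1 of the 4 members was called for Day 60 against Day 30, where 10.3% of genes were called (4.39% higher and 5.91% lower). For Day 113 against Day 60, edgeR called 0 of 4 (0 at an unadjusted p under 0.05), DESeq2 called 0 (1 at an unadjusted p under 0.05) and limma-voom called 0 (2 at an unadjusted p under 0.05), where 24.0% of genes were called (12.9% higher and 11.1% lower). For Day 113 against Day 30 it was 1 of 4, where 34.5% of genes were called (17.3% higher and 17.2% lower). Over the 3 days 2 of 4 passed, where 37.1% of genes did, and for the difference between intervals 0 of 4 passed in edgeR (1 at an unadjusted p under 0.05; 1 each by DESeq2 and limma-voom), where 9.34% of genes did. Read by wells that did not overlap, 3 of 4 were higher at Day 60 than at Day 30 (MT1E, MT2A and MT3), where 10.7% of genes were higher and 14.1% lower in this way. For Day 113 against Day 60, MT2A was higher and MT3 lower (16.2% and 14.4% of genes), and for Day 113 against Day 30 MT2A alone was higher (17.1% higher and 18.0% lower over all genes). The family was not tested as a set. The median log2 difference of the 4 members was 0.97 for Day 60 against Day 30 and 0.73 for Day 113 against Day 30, beside -0.01 and -0.02 over all genes. The comparisons share wells, so these values are not independent.

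The make-up of the metallothionein counts differed between days, a quantity that does not depend on scaling between libraries. Of the counts of the 4 genes, MT2A took 15.5% ± 4.99, 26.3% ± 4.94 and 44.3% ± 7.75 on the 3 days in order (SD; n = 4, 3 and 4). Its share ranged from 10.9% to 22.4% in Day 30 wells and from 34.1% to 52.8% in Day 113 wells, without overlap. The MT1E share was 47.8% ± 3.26 on Day 30 and 26.4% ± 6.76 on Day 113 (SD, n = 4 each), also without overlap (44.0% to 52.0% against 16.7% to 32.3%). The MT3 share was 24.7% ± 1.11 on Day 60 and 13.7% ± 3.29 on Day 113 (SD; n = 3 and 4). The summed level of the 4 genes was 4.93 to 8.82 CPM in Day 30 wells, 10.8 to 14.0 CPM in Day 60 wells and 8.63 to 17.1 CPM in Day 113 wells. These shares and sums describe the wells and were not tested.

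**Figure D3:**
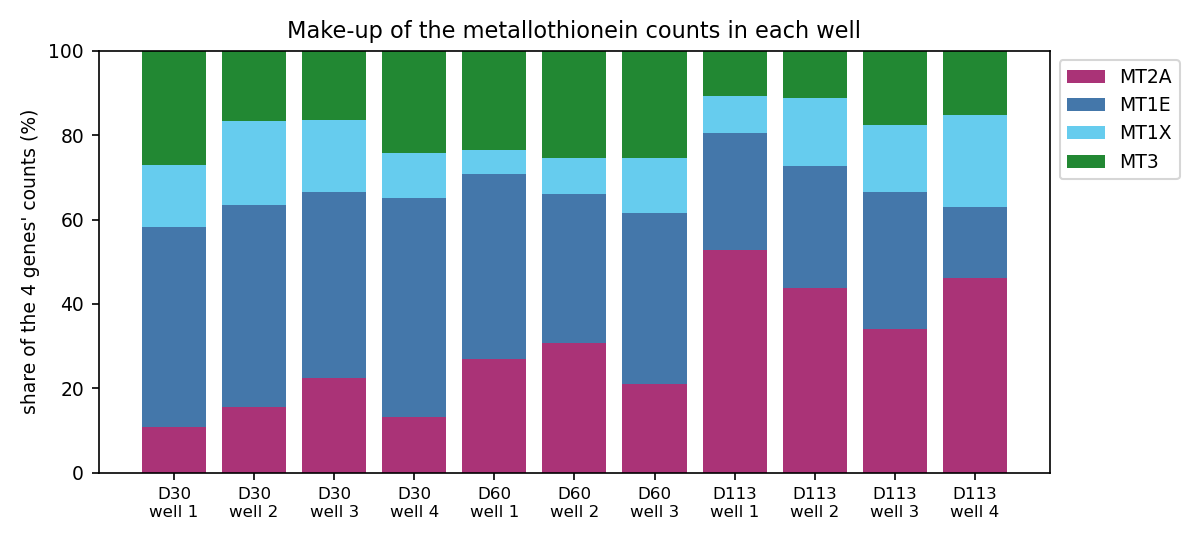
Share of the summed counts of MT2A, MT1E, MT1X and MT3 that each gene took, in percent, in each of the 11 wells. The MT2A share is 10.9% to 22.4% in Day 30 wells and 34.1% to 52.8% in Day 113 wells, and the MT1E share is largest in every Day 30 and Day 60 well.

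Divided by the length of its principal transcript, the order of the gene means was not the same on each day. Where a gene had several principal transcripts in GENCODE release 29, the longest was used. The lengths were 786 bases for MT2A, 704 for MT1E, 569 for MT3 and 450 for MT1X. The order within a day and the percentiles below depend on these lengths, and other lengths, such as from the RefSeq starts, were not tried. On the scale of CPM per kilobase, Day 30 means were 4.20 ± 0.939 for MT1E, 2.22 ± 0.334 for MT3, 2.22 ± 0.979 for MT1X and 1.31 ± 0.826 for MT2A (SD, n = 4). Neighbours in that order overlapped between wells except MT1E and MT3. At Day 60 the order was MT1E (6.90 ± 1.58), MT3 (5.24 ± 0.489), MT2A (4.07 ± 1.04) and MT1X (2.40 ± 0.676; SD, n = 3), and every pair of neighbours overlapped. At Day 113 MT2A stood first with 6.93 ± 1.75, before MT1E (4.84 ± 2.22), MT1X (4.50 ± 1.96) and MT3 (3.04 ± 1.14; SD, n = 4), again with overlap between neighbours. All 4 were low to middling transcripts in these cells. Among 15039 genes with a principal transcript, the mean level per kilobase of MT2A stood at percentile 23.2 at Day 30 and 50.4 at Day 113, and the levels of the other three at percentiles 29.1 to 39.5 at Day 30 and 34.0 to 42.5 at Day 113.

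MT1HL1, a gene on chromosome 1 (237004103 to 237004418, minus strand, GRCh38) that resembles MT1H, was the other metallothionein symbol in the table. Of 11 further metallothionein genes and pseudogenes sought, it alone had a row. The coding sequence of MT1HL1 was identical to that of MT1E at 92.5% of aligned bases, MT2A at 91.4% and MT1X at 90.3%. Exact windows were not compared for MT1HL1, so its counts are uncertain too. Its Day 30 wells held 6, 12, 5 and 17 counts, its Day 60 wells 0, 43 and 14, and its Day 113 wells 0, 4, 0 and 0, a level near the floor of 3 counts that a count of 0 allows (0.0856 to 0.120 CPM in the Day 113 wells). The Day 113 wells lay below all Day 30 wells, as for 18.0% of all genes. No comparison passed in edgeR (adjusted p = 0.11 for Day 113 against Day 30 and 0.0627 for Day 113 against Day 60). Without Day 113 replicate 2, which leaves only wells with 0 counts, both comparisons passed (adjusted p = 0.0286 and 0.0219), and the second also passed without Day 60 replicate 1 (adjusted p = 0.0287) and, with all wells, in DESeq2 (adjusted p = 0.0259).

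Across the 11 wells, Pearson's r between log2 CPM of 2 members ran from 0.20 (MT1E with MT1X) to 0.74 (MT1E with MT3), with MT1X and MT2A at 0.63. After the mean of each day was removed, r ran from 0.25 to 0.59. These values describe wells that share day and library, and are given without a test. A search for genes like the family was limited to members with a mean of at least 5 CPM, which none reached, so it was not made. A separate search for genes like MT3 set that minimum for the other genes only, and MT3 itself averaged 1.90 CPM. As a description, without a test, the genes with the most similar profile over the 11 wells were PPARD, a fatty acid-sensing nuclear receptor (r = 0.93), CAPRIN2 (0.91), DNPEP (0.90), CHSY3 (0.90) and NELL2 (0.89).

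The flanking genes of the cluster were mostly not called. Of 9 flanking genes listed, 8 were in the table. For Day 113 against Day 30, 1 was higher and 0 lower in edgeR, where 17.3% of all genes were higher and 17.2% lower. The median log2 difference was 0.06, beside -0.02 over all genes. The nearest listed on either side were BBS2, a ciliary transport protein, at 0.15 ± 0.09 (SE, adjusted p = 0.229), and NUP93, a nuclear pore component, at -0.06 ± 0.08 (SE, adjusted p = 0.635). OGFOD1 (-0.06), NUDT21 (-0.03) and HERPUD1 (0.18) were not called, and nor was CETP (1.86 ± 1.05, SE, adjusted p = 0.191), which stayed under 1 CPM on average on each day. BBS2 and OGFOD1 share 220 exon bases on opposite strands, so their counts are uncertain. The gene called was NLRC5, an activator of MHC class I genes at the far end of the listed stretch, which rose by 4.40 ± 0.87 (SE, adjusted p = 0.00102) from 0.199 to 4.34 CPM. For Day 113 against Day 60, 1 flanking gene was higher and 1 lower, where 12.9% of all genes were higher and 11.1% lower. NLRC5 rose by 2.85 ± 0.88 (SE, adjusted p = 0.0271). GNAO1, a G protein subunit, fell by 0.77 ± 0.26 (SE, adjusted p = 0.0442), after a difference of 0.74 ± 0.26 (SE, adjusted p = 0.0901) between Day 30 and Day 60.

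**Figure D4:**
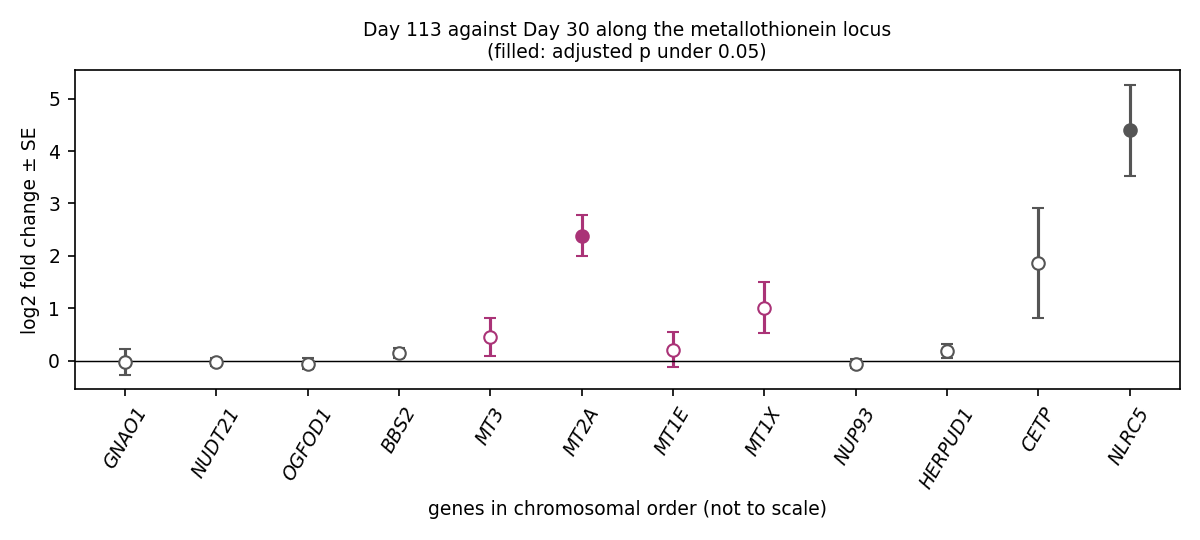
Log2 fold change with its SE for Day 113 against Day 30, for the 4 metallothionein genes (coloured) and 8 flanking genes in chromosomal order, not to scale; filled points have an adjusted p under 0.05. MT2A at 2.39 and NLRC5 at 4.40 are the filled points, and the flanking genes from GNAO1 to BBS2 lie between -0.06 and 0.15.

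Genes that sense and move zinc changed in both directions. Of all genes, 17.3% were called higher and 17.2% lower for Day 113 against Day 30. MTF1, the transcription factor that switches on metallothionein genes in response to zinc, rose by 0.43 ± 0.13 on the log2 scale between Day 30 and Day 113 (SE, adjusted p = 0.0199), from 14.1 to 19.0 CPM. Of the 5 factors listed, MTF1 included, USF1 rose as well (0.51, adjusted p = 0.0055), while MTF2, a Polycomb-associated protein and not a metal sensor despite its name, fell by 0.60 (adjusted p = 0.00121) and SP1 fell by 0.37 (adjusted p = 0.0115). SLC30A1, the plasma membrane zinc exporter and an MTF1 target like the metallothioneins, gave -0.41 ± 0.16 (SE, adjusted p = 0.0623), with 32.0 CPM at Day 30 and 24.1 at Day 113, and was not called.

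Of 10 genes of the SLC30 family, most of which export zinc from the cytosol, 4 were lower and 1 was higher at Day 113 than at Day 30. Over all genes, 17.2% were lower and 17.3% higher in this comparison. SLC30A10, known chiefly as a manganese exporter, fell by 2.26 ± 0.38 (SE, adjusted p = 0.000275), from 3.64 to 0.754 CPM. SLC30A7 fell by 0.74 (adjusted p = 0.0415), SLC30A5 fell by 0.40 (adjusted p = 0.00187) and SLC30A3 fell by 0.31 (adjusted p = 0.0341), while SLC30A9, a mitochondrial zinc transporter, rose by 0.34 (adjusted p = 0.00382). The median over the list was -0.41, beside -0.02 over all genes.

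Of 12 SLC39 genes in the table, which bring zinc into the cytosol, 4 were higher and 4 lower at Day 113 than at Day 30. Their median was -0.11, and over all genes 17.3% were higher and 17.2% lower. SLC39A8 fell by 1.14 ± 0.15 (SE, adjusted p = 3.03e-05) from 32.1 to 14.6 CPM, SLC39A10 fell by 0.89 (adjusted p = 5.30e-05) and SLC39A11 fell by 1.01 (adjusted p = 0.0197). SLC39A2, the remaining one lower, was at 0 counts in all Day 113 wells. SLC39A13 rose by 0.53 (adjusted p = 0.00534), SLC39A6 rose by 0.44 (adjusted p = 0.00294) and SLC39A14 rose by 0.37 (adjusted p = 0.0406). SLC39A12 was called higher from 0 counts in all Day 30 wells to 0.861 CPM at Day 113.

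Among 12 copper genes, 3 were higher and 2 lower at Day 113 than at Day 30. The shares over all genes were 17.3% higher and 17.2% lower. SLC31A1, the main copper importer, fell by 0.90 ± 0.11 (SE, adjusted p = 9.46e-06) and ATP7B, a copper-exporting ATPase, fell by 0.68 (adjusted p = 0.00132). COMMD1 rose by 0.68 (adjusted p = 0.00126), superoxide dismutase SOD1 rose by 0.52 (adjusted p = 0.00215), and SCO1, a copper chaperone of cytochrome oxidase, rose by 0.38 (adjusted p = 0.00378).

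**Figure D5:**
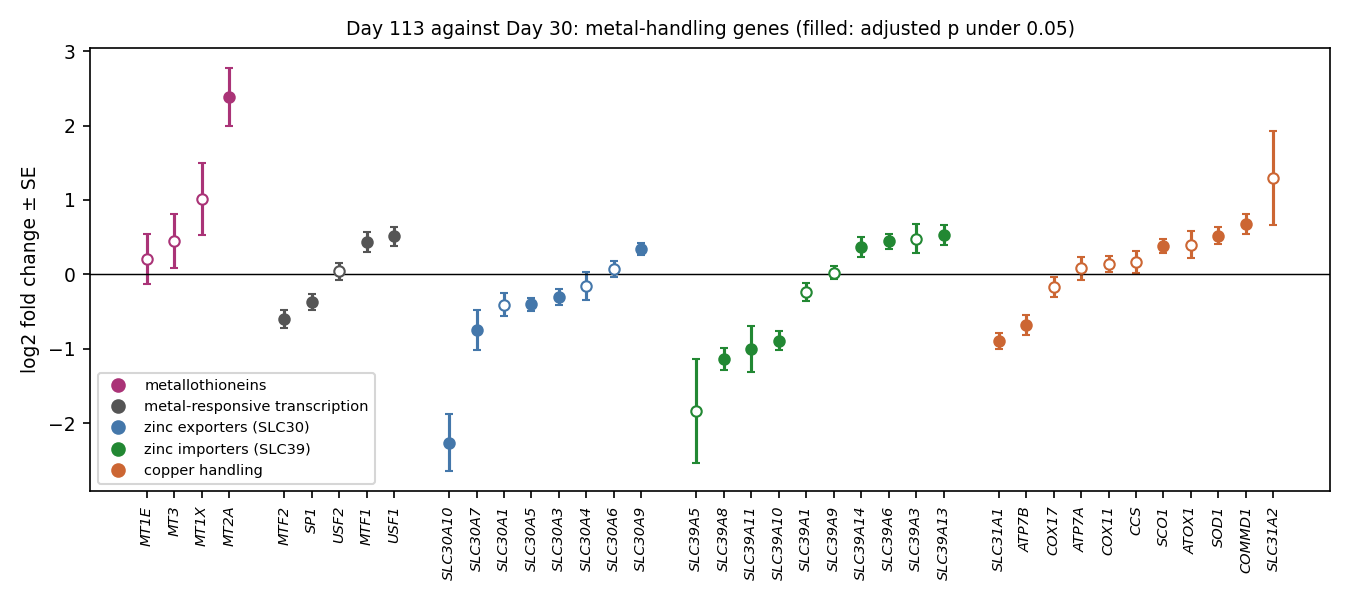
Log2 fold change with its SE for Day 113 against Day 30 in the metallothioneins, factors linked to metal-responsive transcription, SLC30 and SLC39 transporters and copper genes that averaged at least 1 CPM on either day; filled points have an adjusted p under 0.05. MT2A at 2.39 and SLC30A10 at -2.26 lie at the ends of the plot.

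Genes listed for the glucocorticoid response, a further group to which MT2A belongs as background, changed in both directions. They include the receptor NR3C1 and the enzyme HSD11B1. Of 12 listed, 4 were higher and 4 lower at Day 113 than at Day 30, with a median log2 difference of 0.09. Between Day 30 and Day 60, 2 were higher and 2 lower (median -0.24). Between Day 60 and Day 113, 7 were higher and 2 lower (median 0.62). The shares of all genes called were 34.5%, 10.3% and 24.0% for these comparisons in that order. The glucocorticoid receptor NR3C1 rose by 1.25 ± 0.12 (SE, adjusted p = 9.28e-07) from 35.7 to 85.1 CPM. The kinase SGK1 rose by 2.26 ± 0.22 (SE, adjusted p = 1.44e-06) and the zinc finger factor ZBTB16 rose by 2.08 ± 0.21 (SE, adjusted p = 1.87e-06). HSD11B1, which regenerates active glucocorticoid, rose by 4.51 (adjusted p = 0.00102) to 2.26 CPM. The other classical responders TSC22D3 and PER1 fell by 0.71 (adjusted p = 7.78e-05) and 0.72 (adjusted p = 0.00087), DUSP1 fell by 0.52 (adjusted p = 0.0178) and ERRFI1 fell by 1.20 (adjusted p = 0.00249). FKBP5 gave 0.24 (adjusted p = 0.32).

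Of 9 oxidative stress genes governed by the factor NRF2, 4 were higher and 1 lower at Day 113 than at Day 30. Their median was 0.22, in a comparison where 17.3% of all genes were called higher and 17.2% lower. NQO1 rose by 1.53 ± 0.45 (SE, adjusted p = 0.0152), the cystine carrier SLC7A11 rose by 0.91 (adjusted p = 0.017), NFE2L2, which encodes NRF2, rose by 0.47 (adjusted p = 0.00142) and TXNRD1 rose by 0.38 (adjusted p = 0.00478). SRXN1 fell by 0.48 (adjusted p = 0.0203), and HMOX1, like MT2A a gene induced by heavy metals, gave -0.11 ± 0.36 (SE, adjusted p = 0.851). Between Day 30 and Day 60 the adjusted p-values of the 9 genes in edgeR ran from 0.0749 (SLC7A11) to 0.984 (NFE2L2), in a comparison where 10.3% of all genes were called. Between Day 60 and Day 113, where 24.0% of all genes were called, 4 of the 9 were higher (median 0.46).

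Markers of the labelled cell type were abundant throughout, with 8 cardiomyocyte genes summing to 31050 to 45630 CPM in the 11 wells. Several markers of this and other cell types moved with day beside MT2A. For Day 113 against Day 30, the comparison of the counts below unless another is named, 17.3% of all genes were called higher and 17.2% lower. Of the 8 cardiomyocyte genes 2 were higher and 1 lower. All 7 hepatic endoderm genes were lower at Day 113 than at Day 30, and their sum went from 461 to 1347 CPM in Day 30 wells to 47.0 to 55.8 CPM at Day 60 and 11.7 to 41.2 CPM at Day 113. All 6 endothelial genes were higher, with sums of 73.5 to 102 CPM at Day 30, 46.9 to 74.6 CPM at Day 60 and 208 to 793 CPM at Day 113. Of 7 fibroblast genes 3 were higher and 2 lower (3353 to 7706, 2068 to 3569 and 5427 to 13030 CPM), of 3 smooth muscle genes 2 were higher (446 to 685, 522 to 675 and 702 to 1096 CPM) and of 6 epithelial genes 5 were lower (2146 to 3062, 1288 to 1475 and 1174 to 1963 CPM). Of 7 neural and glial genes 2 were higher, summing to 22.4 to 46.8, 25.3 to 44.7 and 27.4 to 61.6 CPM. For Day 60 against Day 30, where 10.3% of all genes were called, 2 of these 7 were higher and 0 lower. For Day 113 against Day 60, where 24.0% were called, 1 was higher and 0 lower. MYH11, a further smooth muscle marker sought, had no row in the count table. None of the markers with a row was at 0 counts in all wells of a day. Their part in the metallothionein levels was not tested, and in these bulk samples more cells of a type and more RNA per cell cannot be told apart.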

How the data were processed

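Poly(A) RNA of 11 wells was sequenced as paired-end 150-base reads, per the labels' protocols. The authors deposited whole-number counts per gene symbol. STAR 2.5.3a, featureCounts 2.0.3 and build hg38 are named in the submitters' processing notes; strand and multi-mapping settings and the annotation are not given in the sources used here. The authors also deposited TPM values, which were not used: the gene length implied by count over TPM differed between libraries for each member, by 48.9-fold (MT1E) to 196-fold (MT1X). That check is given for the members only. Whether the counts or the TPM values cause the mismatch was not tested, and the changes between days were not examined in TPM. The member results therefore rest on the counts alone.

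Counts were tested with edgeR 4.0.16 (R 4.3.3; TMM, filterByExpr with a minimum count of 10, which removed 0 genes; quasi-likelihood F-test; day as the factor; all 11 libraries), with p-values adjusted by the Benjamini-Hochberg method over 19990 genes. SE was taken as the ratio of the absolute log2 change to √F. The procedure was tested on simulated data. Wells of a day differed by more than sampling noise (chi-square per degree of freedom of at least 11.4), so each counts once. Members and lists were chosen with earlier results of these data known. Named genes are the members, the other metallothionein in the table, the flanking genes, MTF1, SLC30A1, NR3C1, up to 4 called genes of each other pathway list (marker lists are given by counts and sums) with a mean of at least 1 CPM and the largest change from Day 30 to Day 113, and the 5 genes most like MT3. SLC30A3, SLC39A2, SLC39A6, SLC39A12, SLC39A14, SCO1, TSC22D3, PER1, DUSP1, ERRFI1, FKBP5, TXNRD1 and HMOX1 were named after their values were seen. Alternatives were other scalings, filters, DESeq2 1.42.0, limma-voom (limma 3.58.1), robust dispersions, 2 days alone, a replicate block and leaving out each well. A coding sequence and a flanking gene are not reported here.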

Additional observations from a re-analysis of the deposited data

Results flagged for a closer look

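The MT2A value of Day 113 replicate 2, 7.50 CPM, stood away from the other Day 113 wells at 4.56 to 4.89 CPM, with a gap of 0.886 of the range of the 4 wells; this gap is above the 95% limit of Dixon's test. Without that well the MT2A change from Day 30 to Day 113 was 2.19 on the log2 scale and still passed in edgeR (adjusted p = 0.000773). The MT1HL1 counts at Day 113 came from the same well alone (4 counts against 0 in the other three), a gap of 1 of the range. Chance marks about 1 in 20 such groups of wells.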

How the results depend on the processing

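The MT2A rise from Day 30 to Day 113 passed under all 17 alternatives run (log2 change 2.18 to 2.91), and that from Day 30 to Day 60 under 14 of 16 (1.41 to 2.14). The count of members called for Day 60 against Day 30 went from 1 to 2, by adding MT3, under DESeq2, a filter at a mean CPM of 1, median-ratio scaling, upper-quartile scaling and a fit of only the 2 days compared, and ran from 0 to 1 when one well was left out. Leaving out one well gave 1 to 2 members for Day 113 against Day 30 and 1 to 2 over the 3 days. DESeq2 and limma-voom each called 1 member, MT3, for the difference between intervals. With the replicate block 1 member was called over the 3 days, since MT3 was lost, and no other member's call changed; it called 2474 genes for Day 60 against Day 30, beside 2060 without it. Same-numbered wells deviated together weakly at most (r of 0.02 to 0.08 over 10 pairs, all positive). Pairs of wells with different numbers ran from -0.08 to 0.07. Whether same-numbered wells share more than a number was not tested. The count of all genes called for Day 60 against Day 30 was 1220 to 1754 with one well left out, lowest without Day 60 replicate 3. Directions reversed for differences within error. With one well left out, MT1E for Day 113 against Day 30 ran from -0.02 (Day 113 replicate 2 omitted) to 0.42. MT1X for Day 60 against Day 30 ran from -0.11 (Day 60 replicate 3 omitted) to 0.39, and was -0.01 and -0.09 on omitting Day 30 replicates 1 and 4. MT1HL1 for Day 60 against Day 30 ran from -0.63 (Day 60 replicate 2 omitted) to 1.56, and was -0.62 under limma-voom and -0.05 with the replicate block. The cause of these changes was not tested. With 14 to 200 counts per well for the members, depth limits how small a change could be seen.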
